A study of Mus musculus with 4 samples.

Results

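The genes of oxidative phosphorylation were followed in the telencephalon of mouse embryos that lack the DNA-binding protein CTCF and of their controls, split by complex and by the genome that encodes them. Members were taken by gene symbol. Nuclear members had symbols that begin with Nduf, Uqcr, Atp5 or Cox4 to Cox8, together with Sdha, Sdhb, Sdhc and Sdhd, and mitochondrial members had symbols that begin with mt-Nd, mt-Co, mt-Cytb or mt-Atp. Of 48795 genes in the table, 105 were members, of which 92 were nuclear and 13 mitochondrial. A further 7 symbols named as pseudogenes were left out.

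RNA of the telencephalon, the embryonic forebrain, was sequenced at embryonic day 14 from C57BL/6 embryos. There were 2 Ctcf-null libraries (Ctcf floxed with NestinCre, a Cre recombinase whose Nestin regulatory sequence is active mainly in neural progenitors and the cells they give rise to) and 2 control libraries (Ctcf floxed without the Cre). The floxed allele was thus shared by all 4 libraries, Cre was carried by the Ctcf-null embryos and not by the controls, and cells outside the Nestin lineage are not expected to have recombined. The libraries form 2 pairs, each of a Ctcf-null library and a control. Whether libraries of a genotype stem from different embryos is not stated. The p-values here thus reflect only the spread among these 4 libraries, pooled largely over genes, and part or all of it may be technical.

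Ctcf itself had 38.9 and 62.0 normalized counts in Ctcf-null telencephalon, against 437 and 1133 in controls, so all 4 libraries matched their labels. The libraries held 25519331 to 43812558 gene reads. Pair 1 and pair 2 differed more than the genotypes did, and the 10 genes with most reads took 21.9% and 26.0% of reads in pair 1, against 8.37% and 8.82% in pair 2. Genes were compared within pairs with limma, a linear model fitted across all 22158 genes with enough reads, on log2(normalized count + 1). With 1 residual and 18.1 prior degrees of freedom, the limma SE and p of a gene rest mostly on genes of like level. They do not measure how far its own pairs differ, so pair values are given for several uneven genes, though not for all. A gene is said to have risen or fallen where its Benjamini-Hochberg adjusted p was under 0.05. Of all tested genes 13.7% passed, with 3.67% higher and 10.1% lower in Ctcf-null telencephalon. Without the pair term limma passed no gene, and 170 genes, none of them a member, had an unadjusted p under 0.05.

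Oxidative phosphorylation makes most of a cell's ATP. Complexes I to IV of the inner mitochondrial membrane pass electrons from NADH and succinate to oxygen and, except for complex II, pump protons, and complex V, the ATP synthase, lets the protons flow back to make ATP. Mitochondrial DNA encodes some core subunits of complexes I, III, IV and V, while the nucleus encodes all the others, all of complex II and the assembly factors, so that the complexes are built from the products of both genomes. Mitochondrial genes are transcribed from both strands of a circular DNA as long RNAs that are cut into single messages, apart from the nuclear transcription machinery.

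The genomes differed in these libraries. Of the 13 mitochondrial members 7 rose and 3 fell in Ctcf-null telencephalon, and the median of their log2 fold changes was 0.22, against a median of -0.07 over all tested genes. Of 89 nuclear members tested 1 rose and 29 fell, and their median was -0.16. In edgeR's quasi-likelihood test on whole reads, with the same pair term, 7 mitochondrial members rose and 2 fell, and 1 nuclear member rose and 16 fell, where 4.8% of all genes rose and 7.13% fell. The median of the mitochondrial members minus that of the nuclear members was 0.38 on the log2 scale over both pairs, 0.45 in pair 1 and 0.24 in pair 2.

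How far either genome is called higher or lower depended on how the libraries were scaled, and the nuclear median turned from -0.16 to 0.04 when each library was scaled by its total reads. The size factors of the authors put the median of all tested genes at -0.07, TMM factors at -0.01, upper-quartile factors at 0.04 and total reads at 0.13. Scaling moves all genes of a library alike, so the distance between the genomes stayed at 0.38 by construction, the nuclear median lay 0.09 below that of all genes under each scaling, and the mitochondrial median lay 0.28 to 0.29 above it. Abundant genes had a lower median than all genes, nearer to that of the nuclear members, as given below. The count of nuclear members that fell was 29 with the size factors of the authors, 16 with TMM factors, 9 with upper-quartile factors and 6 with total reads. Of all genes 6.09% fell with TMM factors, 4.25% with upper-quartile factors and 2.78% with total reads. With total reads 7 nuclear members rose (Atp5a1, Atp5o, Cox6a1, Cox6b2, Ndufc2, Ndufv3 and Uqcrb), where 9.47% of all genes did. Changes below are given with the size factors of the authors, under which the median gene lay at -0.07, and this median was not subtracted.

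**Figure D1:**
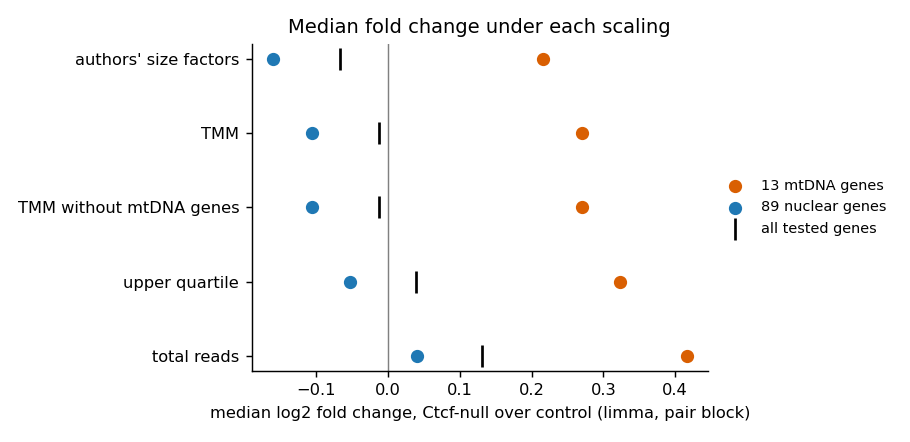
Median log2 fold change (horizontal axis, Ctcf-null over control, limma with the pair term) of the 13 mitochondrial members (orange), the 89 nuclear members tested (blue) and all 22158 tested genes (black bar) under 5 scalings of the libraries (rows). The 3 medians keep their distances while zero moves between them, and the nuclear median is above zero, at 0.04, only with total reads.

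As shares of a library's reads, the mitochondrial members took 3.24% and 2.70% in Ctcf-null telencephalon, against 2.34% and 2.44% in controls. The Ctcf-null libraries were both above both controls. The counting error on these shares is small (exact 95% binomial interval 3.23% to 3.24% for Ctcf-null library 1), and PCR copies make it cover counting error only. The nuclear members took 1.27% and 2.29% in Ctcf-null telencephalon, against 1.20% and 2.30% in controls, and these groups overlapped. The ratio of Ctcf-null to control share was 1.39 in pair 1 and 1.10 in pair 2 for mitochondrial members, and 1.06 and 0.997 for nuclear members. Reads of mitochondrial members per read of nuclear members came to 2.54 and 1.18 in Ctcf-null telencephalon, against 1.95 and 1.06 in controls. The ratio was thus higher in the Ctcf-null library of each pair, by 1.31 and 1.11 times, but the difference between the pairs was larger. With 2 libraries a genotype an exact two-sided permutation test cannot go below p = 0.333, so no test of these shares was made.

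**Figure D2:**
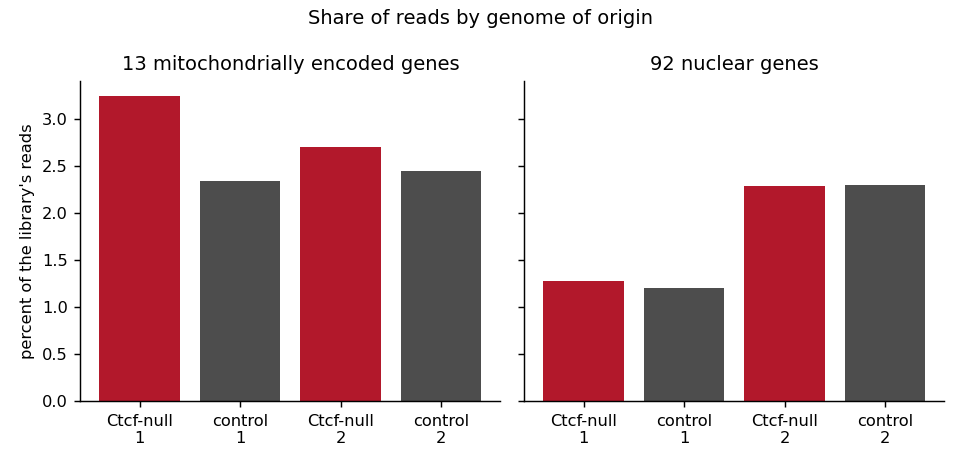
Percent of each library's gene reads (vertical axis) that fell in the 13 mitochondrial members (left) and the 92 nuclear members (right), with Ctcf-null libraries in red and controls in grey. Mitochondrial shares are 3.24% and 2.70% in Ctcf-null telencephalon and 2.34% and 2.44% in controls, while nuclear shares follow the pair rather than the genotype.

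Per kilobase of annotated exon, and as a mean over the 4 libraries, mitochondrial members had 5367 to 379984 normalized counts (median 64246) and nuclear members 0.618 to 27446 (median 3394). Exon length here is the union of all annotated transcripts, so the nuclear values are low estimates. In bulk RNA such as this, fewer cells of a type and less RNA per cell cannot be told apart.

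Among nuclear members the direction was shared widely while most differences were small. With the size factors of the authors 75 of 89 had lower values in the Ctcf-null library of both pairs, where 42.9% of all tested genes did, and 7 had higher values in both, where 24.5% did. With total reads this turned round, to 24 lower in both (15.8% of all genes) and 44 higher in both (50.7% of all genes). Of the 89 members 69 had a log2 fold change within 0.25 of zero. Members are abundant messages, and abundant genes fell more often than others in the same fit. Of genes with a mean of at least 1000 normalized counts, a limit chosen after seeing the data, 24.4% fell, against 29 of the 78 nuclear members at that level (37.2%). In edgeR the shares were 14.9% of such genes and 16 of 78 members (20.5%). The limma median log2 fold change was -0.13 for such genes and -0.17 for these 78 members. How many of such genes were lower in both pairs was not computed. The fold changes of pair 1 and pair 2, which share no library, had r = 0.81 across the 89 members, as a description, since members are not replicates.

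**Figure D3:**
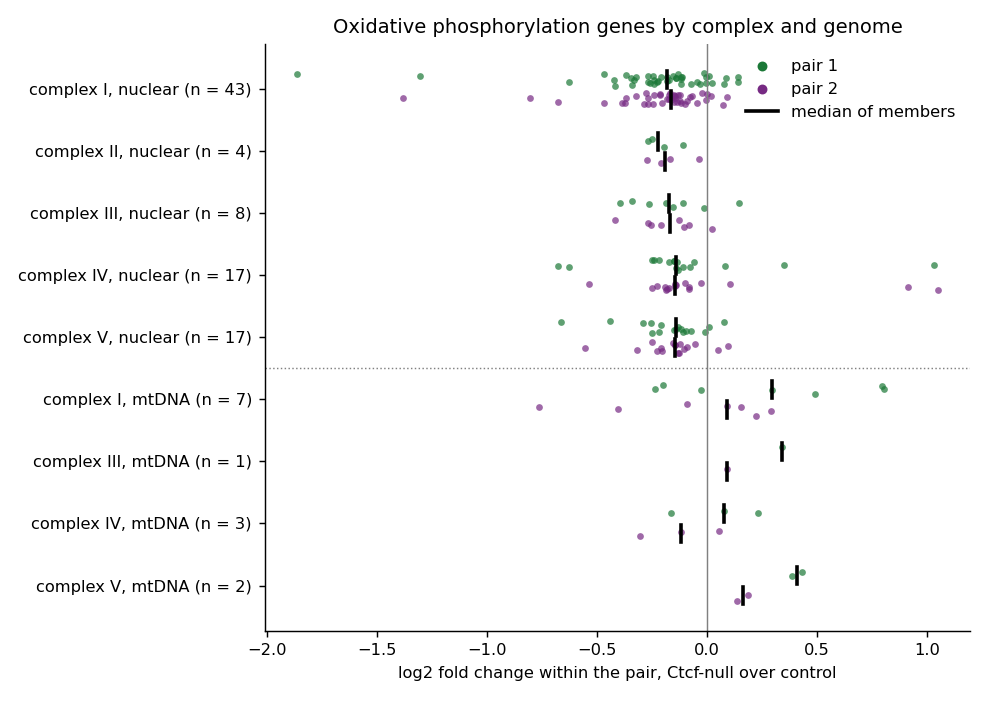
Log2 fold change within a pair (horizontal axis, Ctcf-null over control, size factors of the authors) of each tested member, by complex and genome (rows), with pair 1 in green, pair 2 in purple and black bars for medians. Nuclear members of all 5 complexes cluster just below zero in both pairs, with medians of -0.14 to -0.22, while mitochondrial members spread to both sides.

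Complex I, the NADH dehydrogenase, held 43 of the tested nuclear members, of which 16 fell and none rose in limma, and 11 fell in edgeR. Their median log2 fold change was -0.17, and 35 of them were lower in both pairs. Beside this count and those of the complexes below stand 10.1% of all tested genes that fell in limma and 7.13% in edgeR. Of genes with a mean of at least 1000 normalized counts the shares were 24.4% and 14.9%. Of 7 core subunits, which carry the electron path, 3 fell (1 in edgeR). Of 29 accessory subunits 11 fell (8 in edgeR), and of 7 assembly factors 2 did (2 in edgeR). Ndufb7 and Ndufaf3 stood apart from the rest by the size of their fall.

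Ndufb7, an accessory subunit of the membrane arm (ENSMUSG00000033938.5, GRCm38 chr8:83566671-83571626, plus strand), had 977 and 2678 normalized counts in Ctcf-null telencephalon, against 2411 and 6993 in controls. Each Ctcf-null library was far below its own control, though pair 2 was the higher pair, so Ctcf-null library 2 was above control library 1. The fall was 2.54-fold, with a log2 fold change of -1.34 (SE 0.07, limma adjusted p = 5.7e-11), and -1.30 and -1.38 in the pairs. It was the member with the largest change in either direction.

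Ndufaf3 and Ndufaf4 are assembly factors that, in human cells, bind each other during early steps of complex I assembly. Ndufaf3 (ENSMUSG00000070283.4, chr9:108565537-108567434, minus strand) had 216 and 1233 normalized counts in Ctcf-null telencephalon, against 789 and 2153 in controls. It fell 2.52-fold (log2 fold change -1.33, SE 0.15, limma adjusted p = 3.3e-06), unevenly between pairs at -1.87 and -0.80. DESeq2 did not call it and gave a larger SE of 0.51 (adjusted p = 0.15). It overlaps Impdh2, on the opposite strand, by 48 bases, and the sources used here do not give whether reads were counted by strand. Impdh2 did not pass, with a log2 fold change of -0.08. Ndufaf4 (ENSMUSG00000028261.13, chr4:24898083-24905001, plus strand) had 735 and 1284 normalized counts in Ctcf-null telencephalon, against 1138 and 1777 in controls, and fell with a log2 fold change of -0.55 (SE 0.08, limma adjusted p = 0.00012). The other 5 assembly factors of the Ndufaf family did not pass, with log2 fold changes between -0.32 (Ndufaf6) and 0.05 (Ndufaf5).

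Ndufab1, the mitochondrial acyl carrier protein, which is both a complex I subunit and the carrier of mitochondrial fatty acid synthesis, had 525 and 3218 normalized counts in Ctcf-null telencephalon, against 705 and 5157 in controls. Its log2 fold change was -0.55 (SE 0.08, limma adjusted p = 9.7e-05). The accessory subunits of the membrane arm Ndufb4 (log2 fold change -0.43, SE 0.07) and Ndufb10 (-0.40, SE 0.06) fell as well, to 2343 and 4516 normalized counts for Ndufb4 in Ctcf-null telencephalon, against 3239 and 5900 in controls. Ndufb10 had 4050 and 6502 normalized counts in Ctcf-null telencephalon, against 5418 and 8405 in controls. Both lost the call with total reads, with adjusted p of 0.061 for Ndufb4 and 0.095 for Ndufb10 in limma. Ndufab1 and Ndufb4 have near-identical pseudogenes elsewhere in the genome, so some of their reads cannot be placed. The copies showed a like change to the genes, with log2 fold changes of -0.60 for Gm4459 beside Ndufab1 and -0.42 for Gm3244 beside Ndufb4. Since the copies may hold reads of the genes, no conclusion is drawn from this.

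**Figure D4:**
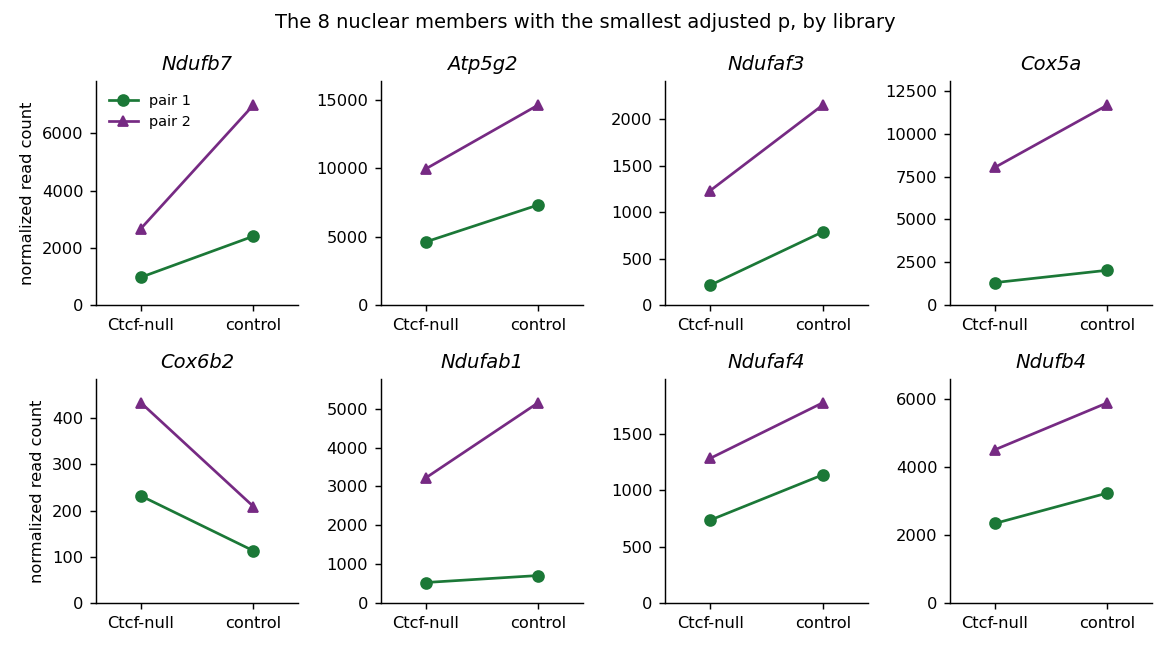
Normalized read counts (vertical axes, each from 0) of the 8 nuclear members with the smallest limma adjusted p, with the Ctcf-null library on the left and the control on the right of each panel, and lines joining the libraries of pair 1 (green circles) and pair 2 (purple triangles). For 7 of them the Ctcf-null library is lower in both pairs, and for Cox6b2 it is higher in both.

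Complex II, succinate dehydrogenase, feeds electrons from the citric acid cycle and has 4 subunits, all nuclear. Sdhc, a membrane anchor, had 3871 and 5212 normalized counts in Ctcf-null telencephalon, against 4609 and 6296 in controls (log2 fold change -0.26, SE 0.06, limma adjusted p = 0.0098). Sdhb, the iron-sulfur subunit, had 8755 and 11906 in Ctcf-null telencephalon, against 10553 and 13769 in controls (-0.24, SE 0.06, adjusted p = 0.012). The other anchor, Sdhd (-0.18, adjusted p = 0.066), and the flavoprotein Sdha (-0.07, adjusted p = 0.49) did not pass. So 2 of 4 fell in limma, and 1 in edgeR, where Sdhb did not pass (adjusted p = 0.069). All 4 were lower in both pairs with the size factors of the authors, and none passed with upper-quartile factors or with total reads, the last with values from -0.06 for Sdhc to 0.13 for Sdha.

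Complex III, the cytochrome bc complex, had 8 nuclear members tested, of which 4 fell in limma and 1 in edgeR, with a median log2 fold change of -0.21. Uqcrq, a small membrane subunit, had 4253 and 6926 normalized counts in Ctcf-null telencephalon, against 5603 and 8273 in controls, and fell in both tests (log2 fold change -0.33, SE 0.07, limma adjusted p = 0.0019, edgeR 0.0080). Uqcrh, the hinge protein (-0.24), Uqcr10 (-0.23) and the core protein Uqcrc1 (-0.21) fell in limma but not in edgeR, whose adjusted p were 0.072, 0.10 and 0.14. Uqcr10 was uneven, at -0.34 in pair 1 and -0.13 in pair 2. The Rieske iron-sulfur protein gene Uqcrfs1 did not pass, with log2 fold changes of -0.01 in pair 1 and -0.42 in pair 2. Uqcrb was higher in both pairs without passing (0.08, adjusted p = 0.45).

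Complex IV, cytochrome c oxidase, had 20 nuclear members, counting Ndufa4 and Ndufa4l2, which are placed here since Ndufa4 is now known as a subunit of this complex. Of 17 tested 4 fell and 1 rose in limma, and in edgeR 1 fell and 1 rose. Cox5a, a subunit on the matrix side (ENSMUSG00000000088.6, chr9:57521274-57532426, plus strand), had 1317 and 8036 normalized counts in Ctcf-null telencephalon, against 2039 and 11667 in controls, and fell (log2 fold change -0.58, SE 0.07, limma adjusted p = 4.3e-06). Cox6c (-0.23), Cox4i1, the ubiquitous form of the regulatory subunit Cox4 (-0.22), and Cox7a2l (-0.20) fell in limma and had edgeR adjusted p of 0.077, 0.11 and 0.17.

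Several complex IV subunits have forms made in particular tissues, and the nuclear member that rose is such a form. Cox6b2, the testis form of Cox6b (ENSMUSG00000051811.14, chr7:4751792-4753094, minus strand), had 232 and 434 normalized counts in Ctcf-null telencephalon, against 113 and 209 in controls. Both Ctcf-null libraries were above both controls, a 2.06-fold rise (log2 fold change 1.04, SE 0.13, limma adjusted p = 1.6e-05) that was alike in the pairs at 1.03 and 1.05. Its ubiquitous counterpart Cox6b1 had 9166 and 11595 normalized counts in Ctcf-null telencephalon, against 10061 and 12844 in controls, and did not pass (-0.14, adjusted p = 0.14). Per kilobase of exon Cox6b2 averaged 223 normalized counts and Cox6b1 15419, so the testis form stayed the far scarcer message. Of the other tissue forms tested, Cox7a1 (0.63, adjusted p = 0.28), Ndufa4l2 (-0.43, 0.11), Cox4i2 (-0.14, 0.73) and Cox8c (-0.09, 0.94) did not pass in limma. Cox6a2, Cox7b2 and Cox8b, muscle and testis forms, had at most 10.6 normalized counts in any library and were not tested. The ubiquitous forms Cox6a1 (0.09), Cox7a2 (-0.08), Cox8a (-0.14) and Ndufa4 (-0.11) did not pass either. Cox6a1 passed upward after correction for gene length and GC content (0.29, adjusted p = 0.0024) and with total reads (0.29, adjusted p = 0.0032).

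Complex V, the ATP synthase, had 17 nuclear members, of which 3 fell in limma and 2 in edgeR, with a median of -0.15. Atp5g2 (ENSMUSG00000062683.11, chr15:102662864-102672352, minus strand) had 4622 and 9958 normalized counts in Ctcf-null telencephalon, against 7326 and 14629 in controls. It fell 1.53-fold (log2 fold change -0.61, SE 0.06, limma adjusted p = 1.1e-06). Atp5g1, Atp5g2 and Atp5g3 all encode the same mature ring subunit, and the other genes of the trio did not pass, at -0.13 for Atp5g1 and -0.08 for Atp5g3. Atp5g1 and Atp5g2 have pseudogenes of 99.8% and 100% identity over 411 and 127 aligned bases, in transcripts of 4715 and 753 bases. Gm10175, the copy beside Atp5g2, had 0.51 times its level and moved by -0.56. Atp5k, subunit e at the dimer interface, fell (-0.38, SE 0.07, adjusted p = 0.00062), as did Atp5j2, subunit f (-0.23, adjusted p = 0.018, edgeR 0.088). The catalytic subunit genes Atp5a1 (0.09) and Atp5b (-0.15) did not pass. The rule also takes in Atp5s and Atp5sl, which are not subunits of the enzyme, at -0.20 and -0.15 without passing.

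With the size factors of the authors, TMM factors, upper-quartile factors and total reads, and in edgeR, 6 nuclear members fell throughout: Ndufb7, Ndufaf3, Ndufaf4, Ndufab1, Cox5a and Atp5g2. Cox6b2 rose throughout. Promoters from RefSeq (GRCm38.p6, from 250 bases before to 50 after an annotated start) were matched for 73 of the 92 nuclear members and searched for letters of known binding motifs, which were chosen after the sequences were seen. For CTCF the letters were CCAGGGG, from the middle of its motif, for NRF1, an activator of many nuclear genes of respiration, GCGCATG, and for factors of the ETS family CCGGAAG, on both strands. Matches of GCGCATG on opposite strands overlap where its motif is whole. Promoters are shown for the 2 members that fell most, Ndufb7 and Ndufaf3, for Ndufaf4 and Atp5g2, which hold such letters, and for Cox6b2, the member that rose. Capitals mark CTCF and NRF1 letters. They are Ndufb7 at chr8:83566508-83566807 (plus strand), Ndufaf3 at chr9:108567387-108567686 (minus strand), Ndufaf4 at chr4:24897833-24898132 (plus strand), Atp5g2 at chr15:102670998-102671297 (minus strand) and Cox6b2 at chr7:4753045-4753344 (minus strand).
Ndufb7: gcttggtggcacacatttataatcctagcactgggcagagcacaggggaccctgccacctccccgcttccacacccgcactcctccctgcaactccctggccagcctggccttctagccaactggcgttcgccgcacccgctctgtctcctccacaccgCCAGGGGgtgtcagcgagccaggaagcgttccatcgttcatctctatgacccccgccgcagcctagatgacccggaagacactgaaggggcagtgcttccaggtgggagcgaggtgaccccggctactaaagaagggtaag
Ndufaf3: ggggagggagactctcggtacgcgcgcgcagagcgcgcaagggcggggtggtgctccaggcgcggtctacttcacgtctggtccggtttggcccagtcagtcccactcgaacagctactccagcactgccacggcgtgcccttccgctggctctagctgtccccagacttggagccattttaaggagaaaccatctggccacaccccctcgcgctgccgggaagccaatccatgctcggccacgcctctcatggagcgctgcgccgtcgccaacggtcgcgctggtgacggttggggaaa
Ndufaf4: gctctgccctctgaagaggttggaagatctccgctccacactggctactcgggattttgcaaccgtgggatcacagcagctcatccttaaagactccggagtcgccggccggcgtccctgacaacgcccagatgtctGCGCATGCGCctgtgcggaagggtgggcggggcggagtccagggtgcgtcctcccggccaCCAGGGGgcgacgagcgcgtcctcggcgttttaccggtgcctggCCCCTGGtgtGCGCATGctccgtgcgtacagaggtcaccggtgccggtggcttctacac
Atp5g2: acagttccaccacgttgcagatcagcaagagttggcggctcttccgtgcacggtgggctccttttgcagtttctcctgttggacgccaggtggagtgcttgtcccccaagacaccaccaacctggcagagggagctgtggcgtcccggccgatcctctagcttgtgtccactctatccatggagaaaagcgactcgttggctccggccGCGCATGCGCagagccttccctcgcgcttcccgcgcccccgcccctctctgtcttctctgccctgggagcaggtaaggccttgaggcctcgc
Cox6b2: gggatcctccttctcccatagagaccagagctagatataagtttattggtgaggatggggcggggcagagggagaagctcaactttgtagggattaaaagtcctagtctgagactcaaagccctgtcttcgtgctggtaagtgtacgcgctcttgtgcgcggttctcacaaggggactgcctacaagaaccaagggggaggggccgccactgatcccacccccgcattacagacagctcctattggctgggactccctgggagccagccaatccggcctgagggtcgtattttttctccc

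Ndufb7 held CTCF letters starting 91 bases before its start and ETS letters, not capitalised, 20 bases before it. Ndufaf4 held CTCF letters 53 and, on the other strand, 9 bases before its start, and NRF1 letters 113 bases before it, with a further match just after the start. Atp5g2 held NRF1 letters 42 bases before its start. No match was found in the windows of Ndufaf3 and Cox6b2, which says only that these letters are not there. The CTCF letters were in a promoter of 9.22% of all genes with an entry and 9.59% of nuclear members, and the NRF1 letters in 4.41% of all genes and 20.5% of nuclear members. The ETS letters were in 9.93% of all genes and 23.3% of nuclear members. Of the 24 matched members that fell 3 held CTCF letters, 8 NRF1 letters and 6 ETS letters, against 4, 7 and 11 of the 47 tested members that did not fall. Letters are a description of the sequence and show no binding.

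The 13 mitochondrial members are all coding genes of the mitochondrial DNA. Along that DNA the direction changed from gene to gene and did not follow the complexes. Of the complex I genes, mt-Nd3 had 3984 and 4038 normalized counts in Ctcf-null telencephalon, against 2279 and 3303 in controls (log2 fold change 0.55, SE 0.09, limma adjusted p = 0.00028). For mt-Nd2 the values were 13956 and 22136 in Ctcf-null telencephalon, against 8055 and 18962 in controls (0.51, SE 0.09, adjusted p = 0.00053). Both rose mainly in pair 1, with 0.81 for mt-Nd3 and 0.79 for mt-Nd2, against 0.29 and 0.22 in pair 2. mt-Nd4 (0.29, adjusted p = 0.013) and mt-Nd4l (0.23, adjusted p = 0.026), which share a message and overlap by 7 bases, rose too, and mt-Nd1 did not pass (-0.06, against 0.05 with upper-quartile factors and 0.14 with total reads). The rise of mt-Nd4 was also mainly in pair 1, at 0.49 against 0.09 in pair 2.

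The complex I genes mt-Nd5 and mt-Nd6 went the other way. mt-Nd6 had 2067 and 2456 normalized counts in Ctcf-null telencephalon, against 2438 and 4180 in controls (log2 fold change -0.50, SE 0.09, limma adjusted p = 0.00091). It is the only member on the minus strand of the mitochondrial DNA, and it fell more in pair 2 (-0.77) than in pair 1 (-0.24). mt-Nd5, its neighbour on the other strand, had 12615 and 13789 normalized counts in Ctcf-null telencephalon, against 14481 and 18249 in controls (-0.30, SE 0.06, adjusted p = 0.0033), and lost the call with upper-quartile factors (adjusted p = 0.12) and total reads (0.43). Their annotated ends overlap by 14 bases on opposite strands. Both strands are transcribed as long RNAs, so without strand the whole count of either gene may hold reads of the opposite strand. The fall of mt-Nd6 can therefore not be assigned to RNA of the minus strand.

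mt-Cytb, the mitochondrial subunit of complex III, rose to 161315 and 114276 normalized counts in Ctcf-null telencephalon, against 127260 and 107435 in controls (0.22, SE 0.07, limma adjusted p = 0.039). Its rise was mainly in pair 1, at 0.34 against 0.09 in pair 2. The complex V genes mt-Atp6 and mt-Atp8, which overlap by 43 bases on a shared message, rose by 0.28 and 0.29 on the log2 scale (adjusted p = 0.010 and 0.0048). mt-Atp6 had 213998 and 130996 normalized counts in Ctcf-null telencephalon, against 158766 and 119366 in controls. Its log2 fold change was 0.43 in pair 1 and 0.13 in pair 2. None of the 3 complex IV genes, which encode its core, rose with the size factors of the authors. mt-Co1 had 87181 and 104286 in Ctcf-null telencephalon, against 97727 and 128770 in controls, and fell (-0.23, SE 0.06, adjusted p = 0.016), but not in edgeR (adjusted p = 0.091). mt-Co2 (0.14) and mt-Co3 (-0.02) did not pass, and the sign of mt-Co3 was positive in edgeR, DESeq2 and every other scaling. With total reads mt-Co2 rose (0.34, adjusted p = 0.00029).

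**Figure D5:**
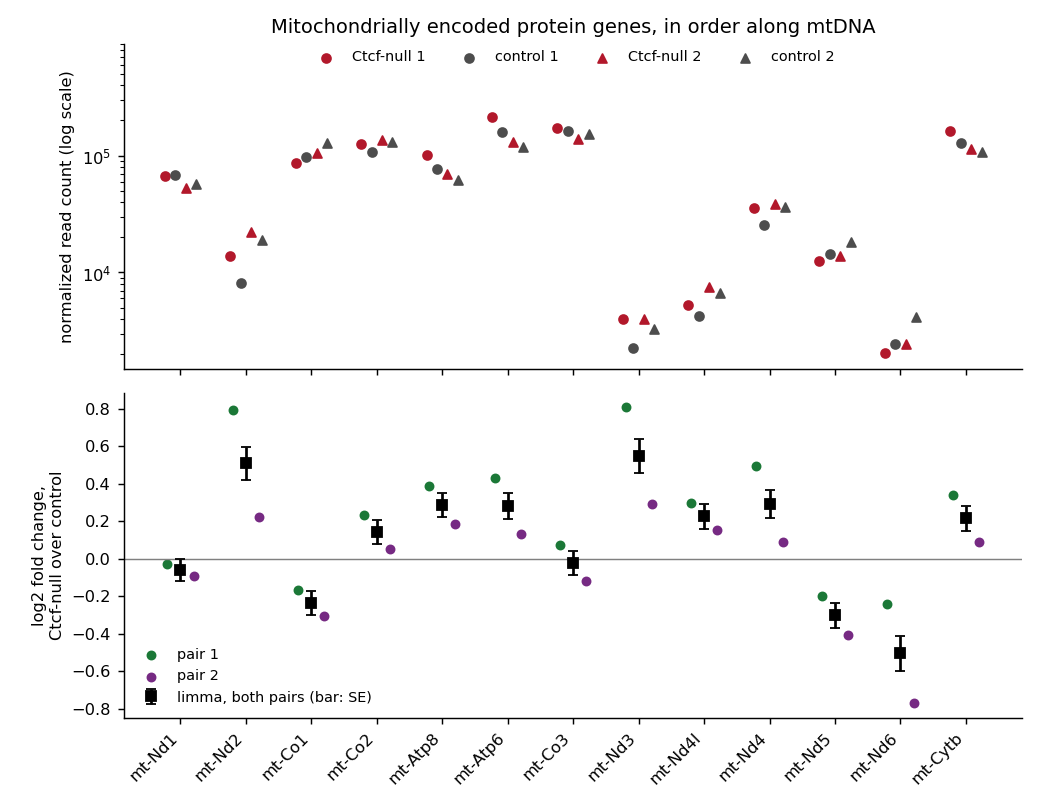
The 13 mitochondrially encoded members in order along mitochondrial DNA (horizontal axis): above, normalized read counts on a log scale with Ctcf-null libraries in red and controls in grey (pair 1 circles, pair 2 triangles). Below, log2 fold changes, Ctcf-null over control, of pair 1 (green), pair 2 (purple) and the limma fit over both (black, bars SE), where mt-Nd2 and mt-Nd3 are highest at 0.51 and 0.55 and mt-Nd6 lowest at -0.50. The SE rests mostly on genes of like level, so the bars do not show the distance between the pairs.

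The pairs had the same sign for 12 of 13 mitochondrial members, 8 higher and 4 lower in both, with mt-Co3 the exception. For all of them pair 1 lay above pair 2, with medians of 0.30 and 0.09. The 7 that rose also rose in edgeR and under those 4 scalings (mt-Nd2, mt-Nd3, mt-Nd4, mt-Nd4l, mt-Cytb, mt-Atp6 and mt-Atp8). Of all genes 4.32% rose with TMM factors, 5.77% with upper-quartile factors and 9.47% with total reads. The share of all genes passing throughout was not counted and cannot exceed 3.67% for rises and 2.78% for falls. Of the 3 that fell, mt-Nd6 fell throughout. After correction for gene length and GC content 3 rose (mt-Nd2, mt-Nd3 and mt-Nd4l) and 3 fell, where 3.73% of all genes rose and 10.4% fell, and DESeq2 called 3 higher and 1 lower. The mitochondrial ribosomal RNA genes did not follow the rises. mt-Rnr2 had 29109 and 42649 normalized counts in Ctcf-null telencephalon, against 30517 and 56349 in controls, and fell (-0.24, SE 0.07, limma adjusted p = 0.031, edgeR 0.13), and mt-Rnr1 did not pass. The fall of mt-Rnr2 was mainly in pair 2, at -0.40 against -0.07 in pair 1.

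A stretch of chromosome 1 holds near-identical copies of 7 mitochondrial members, with 99.7% to 100% identity over the aligned bases, and the table counts reads for these copies as separate genes. Their levels were 0.39 (Gm28439, a copy of mt-Nd4) to 3.95 (Gm28438, a copy of mt-Nd3) times those of the members, so where the reads of these members were counted cannot be settled from the table. The copies moved like the genes, with a log2 fold change of 0.53 for Gm28438, 0.29 for Gm10925 beside mt-Atp6 and -0.26 for Gm29216 beside mt-Co1. Members and copies together took 5.50% and 4.61% of reads in Ctcf-null telencephalon, against 3.96% and 4.15% in controls. With copies added to their genes, an alternative chosen after seeing the data, the mitochondrial median stayed at 0.22 and the nuclear median at -0.16. The members at these medians had no copy to add, and the copies moved like their genes. The medians could thus hardly change, and no conclusion is drawn from this. Among annotated pseudogenes no such copy was found for mt-Nd1, mt-Nd2, mt-Nd5, mt-Nd6, mt-Cytb and mt-Atp8. Unannotated sequence was not searched, so these members may have copies as well.

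Genes that serve the same complexes but lie outside the name rule were counted from lists. Over all tested genes 3.67% rose and 10.1% fell in limma, and 4.8% rose and 7.13% fell in edgeR. Of 38 other assembly factors tested 7 fell and none rose in limma, and 4 fell in edgeR. Fmc1, an assembly factor of the ATP synthase in yeast and human, had 196 and 838 normalized counts in Ctcf-null telencephalon, against 561 and 2289 in controls (log2 fold change -1.48, SE 0.09, limma adjusted p = 8.2e-10), and Tmem126b, of complex I assembly, fell by 0.38 on the log2 scale. Of 34 genes that copy, transcribe or translate the mitochondrial genome 1 rose and 5 fell in limma, and 1 rose and 4 fell in edgeR. Polg, the mitochondrial DNA polymerase, had 465 and 589 normalized counts in Ctcf-null telencephalon, against 311 and 407 in controls (0.56, SE 0.11, adjusted p = 0.0012). Gfm1, a mitochondrial translation elongation factor, had 233 and 567 in Ctcf-null telencephalon, against 638 and 1327 in controls (-1.34, SE 0.10, adjusted p = 1.2e-08), and Mterf2, of the mitochondrial transcription terminator family, fell by 0.57 on the log2 scale. Of 11 nuclear regulators of respiration genes Gabpb2 rose (0.62, adjusted p = 0.0011) and Gabpb1 fell (-0.36, adjusted p = 0.012), both of them partners of the ETS factor Gabpa. Of 17 genes of the citric acid cycle and pyruvate dehydrogenase 3 fell in limma, among them Mdh2 (-0.24) and Dlat (-0.37). In edgeR 1 of the 17 fell, and Mdh2 did not pass (adjusted p = 0.077). Cycs, which encodes cytochrome c, and Cyc1, a subunit of complex III, did not pass.

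Some markers of other cell types moved in these libraries as well, where 3.67% of all tested genes rose and 10.1% fell in limma. In edgeR 4.8% of all genes rose and 7.13% fell. Of 10 choroid plexus markers 3 rose and none fell, and their summed level was 96133 and 36820 normalized counts in Ctcf-null telencephalon, against 73454 and 25484 in controls, most of it Ttr (log2 fold change 0.47). Of 9 microglia and macrophage markers 1 rose in limma and 2 in edgeR, of 6 endothelial markers 1 fell in limma and none in edgeR, and of 6 muscle markers tested 1 fell in both (Acta1). Of 6 markers each of neural progenitors and neurons 2 fell in both tests. They were Fabp7 (limma log2 fold change -0.61) and Hes5 (-0.57) for progenitors, and Tubb3 (-0.52) and Elavl4 (-0.48) for neurons. In edgeR alone 1 of each list rose, Pax6 (log2 fold change 0.26, edgeR adjusted p = 0.020) and Dcx (0.22, edgeR adjusted p = 0.033). Neither passed in limma (adjusted p = 0.071 and 0.094). None of the 9 red blood cell markers passed, and they took 2.99% and 2.02% of reads in Ctcf-null telencephalon, against 3.66% and 1.67% in controls. No marker of these lists was at 0 in all libraries. The part of cell makeup in the mitochondrial and nuclear differences was not tested. Without the red blood cell reads the mitochondrial share was 3.34% and 2.75% in Ctcf-null telencephalon, against 2.42% and 2.48% in controls.

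Levels of the nuclear members differed more between the pairs than between genotypes. Pair 2 over pair 1 had a median log2 difference of 0.73, a range of -2.06 to 3.74, and 15 members over 4-fold apart, while the median was 0.23 for mitochondrial members and 0.08 for all tested genes. Across the 89 nuclear members the log2 fold change between genotypes had r = -0.02 with GC content, -0.19 with log10 exon length and -0.13 with log2 mean level, as descriptions over members of the same 4 libraries.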

How the data were processed

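RNA was extracted and sequenced by a service laboratory from tissue kept in RNAlater, with cDNA from a Clontech SMART kit, per the labels' protocols. The submitters' processing notes name STAR 2.5.3, DESeq2 and mm10. For the counting program, its handling of strand and of reads with several places, and the read length, the sources used here give nothing. The authors deposited 1 table of gene counts divided by size factors (normalized signal) with log2 fold changes per pair, which were read only as a check. Whole reads were recovered from the steps of the values (99.97% or more of nonzero values whole, tolerance 0.005 reads), giving 25519331 to 43812558 reads a library.

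Genes left by filterByExpr (22158) were fitted with limma 3.58.1 (R 4.3.3) on log2(normalized count + 1), a scale that understates changes of low genes, with genotype and pair as terms, 1 residual degree of freedom and 18.1 prior degrees of freedom. The pair term is in the design because the submitters describe pairs and give a fold change for each. Same-numbered libraries also deviated together (r = 0.92). edgeR 4.0.16 and DESeq2 1.42.0 were run on recovered reads with the same terms. On simulated counts of 22158 genes with the pair difference of these libraries and 200 changed genes, limma recovered 59.7% of 1.5-fold, 91.0% of 2-fold and 100% of 4-fold changes with 7 false calls, and edgeR 56.7%, 89.6% and 100% with 6, while limma without the pair term recovered 0%. The simulated spread followed level alone, and the 200 changes went in both directions. False calls from a gene's own spread or from scaling were thus not measured. Changes under 1.5-fold, as in most members, were not simulated.

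Gene coordinates and types came from GENCODE M21 (GRCm38, the same build as mm10), which matched 48349 identifiers and all 105 members. Copies were found with BLAST+ 2.17.0 among annotated pseudogene transcripts only (at least 98% identity over 100 bases). Named members are all mitochondrial ones, the Sdh genes, up to 4 a direction with the smallest adjusted p in each nuclear complex and class, the member with the largest change, and the tissue isoform families. Uqcrfs1, Uqcrb, Atp5a1, Atp5b, Atp5o, Atp5s, Atp5sl, Ndufc2, Ndufv3, Ndufaf5, Ndufaf6, Cycs and Cyc1 were named after their values were seen. The members and gene lists were chosen with earlier results of these data known. Alternatives were other scalings, tests, filters, pseudocounts, a length and GC correction, and leaving out libraries.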

Additional observations from a re-analysis of the deposited data

How the results depend on the processing

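The pair term decided every call. Without the replicate block limma called 0 genes higher and 0 lower, hence 0 members of either genome, with the same medians. Leaving out a library ends the pair, so counts then come from the fit without the pair term, with 0 genes higher and 0 to 2 lower and 0 members called, and the medians are those of the other pair, -0.15 in either case for nuclear members and 0.09 to 0.30 for mitochondrial members. In the fits without the pair term, which set a lone library against both of the other genotype, the nuclear median was 0.25 without Ctcf-null library 1, -0.56 without Ctcf-null library 2, -0.54 without control library 1 and 0.22 without control library 2. The mitochondrial minus the nuclear median was -0.28, 0.69, 0.57 and -0.13 in the same order, so the difference between the genomes turned in 2 of these 4 fits. Against 813 genes higher and 2228 lower with the size factors of the authors, DESeq2 called 289 higher and 543 lower, upper-quartile factors gave 1279 higher and 942 lower, total reads 2098 higher and 617 lower, and TMM factors 1349 lower, or 1345 when computed without mitochondrial genes. Nuclear members that fell numbered 16 in edgeR and with either set of TMM factors, 8 in DESeq2, 9 with upper-quartile factors and 6 with total reads. Nuclear members that rose numbered 7 with total reads and 2 after the length and GC correction. The nuclear median was -0.11 in edgeR and with either set of TMM factors, -0.13 in DESeq2, -0.0538 with upper-quartile factors, -0.153 after the length and GC correction, and it reversed to 0.0396 with total reads. Mitochondrial members that rose numbered 3 in DESeq2 and 3 after the length and GC correction, and those that fell 1 in DESeq2, 1 with upper-quartile factors and 1 with total reads. The mitochondrial median was 0.42 with total reads and 0.16 after the length and GC correction. That correction put the mitochondrial minus the nuclear median at 0.32, against 0.38 in the main fit. The other pseudocounts and filters changed no member count by over 1.5 times.

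The sign turned in 45 of 89 nuclear and 2 of 13 mitochondrial members with total reads, in 12 and 2 with upper-quartile factors, in 5 and 0 after the length and GC correction, and in 1 and 1 in edgeR, in DESeq2 and with either set of TMM factors. None of these members had passed with the size factors of the authors. Of the members named by the rule, those with total reads were Atp5g1 (0.0674), Atp5g3 (0.12), Cox4i2 (0.0563), Cox6b1 (0.0598), Cox7a2 (0.12), Cox8a (0.0598), Cox8c (0.0801), Ndufa4 (0.0897), Sdha (0.13), Sdhd (0.0164), mt-Co3 (0.18) and mt-Nd1 (0.14). With upper-quartile factors the named members were Atp5g3 (0.0251), Cox7a2 (0.0268), Sdha (0.0342), mt-Co3 (0.086) and mt-Nd1 (0.0476). The sign of mt-Co3 also turned in edgeR (0.0333), DESeq2 (0.0062) and with TMM factors (0.0333 with and 0.033 without mitochondrial genes). The cause of the other shifts between tests was not tested. With 1 residual degree of freedom, 2 libraries a genotype and reads shared with near-identical copies, precision is limited, and limma recovered 59.7% of simulated 1.5-fold changes.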
